A study of Mus musculus with 7 samples.

Results

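Genes of respiratory complex I that are encoded in the nucleus were followed in RNA from mouse brain. The members are all genes of the deposited table whose Ensembl identifier maps to a mouse symbol beginning with Nduf, leaving out symbols that end in -ps or -os. They number 49 of the 48526 genes listed, 41 with the symbol of a subunit and 8 assembly factors (Ndufaf symbols). Of the 49, 46 had a mean value of at least 3 over all libraries and were tested, 38 subunit symbols and all 8 assembly factors. The 3 that did not reach this level are the copies Ndufa11b, Ndufb4c and Ndufs6b, with mean values of -0.63, 0.46 and -0.57.

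The RNA came from brains of 24-month-old mice that carry the constructs named V1S and SV2, and the labels of every library name the fluorescent protein Venus together with the letters DT. The title of the series concerns protein complementation as a readout of α-synuclein oligomers at the presynapse. The 4 libraries titled on are from mice labelled glucose, and the 3 titled off from mice labelled Dox, so an effect of doxycycline itself cannot be told apart from that of the constructs. The sources used here do not give the strain, the brain region, the promoter that drives each construct or the duration of treatment. Nothing in the labels ties each library to its own animal, and the p-values therefore describe the spread between these samples, which may be technical. Values are rlog values, regularized logarithms to base 2, in which the deviations of a gene from its own mean are shrunk, most strongly at low counts. A difference is the mean of on minus the mean of off, it understates the change of low genes, and the depth of each library is unknown.

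Complex I, NADH:ubiquinone oxidoreductase, is the entry point of electrons from NADH into the mitochondrial respiratory chain. Its L-shaped structure has a matrix arm, in which the N module oxidizes NADH and the Q module passes the electrons to ubiquinone, and a membrane arm that pumps protons. The catalytic core is made from nuclear and mitochondrial genes, is surrounded by accessory subunits that are all nuclear, and is put together by assembly factors that leave the finished enzyme. Neurons depend heavily on the respiratory chain for their ATP, and complex I inhibitors are toxic to dopamine neurons.

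Nuclear complex I genes were mostly lower in the on libraries, by small amounts. Differences ran from -0.33 (Ndufa2) to 0.06 (Ndufaf4), with a median of -0.12 over the 46 tested members and 0.00 over all 17896 tested genes, and 42 of the 46 were negative. By limma's moderated test with Benjamini-Hochberg adjustment over all tested genes, at a threshold of 0.05, 12 of the 46 were lower in on (1.79% of all tested genes) and 0 higher (0.816% of all), while 29 of the 46 had an unadjusted p under 0.05, none of them higher in on (20.7% of all tested genes, in either direction). Every on library lay below every off library in 18 members (8.09% of all tested genes), and the reverse occurred in 0 (7.13% of all). Among the subunit symbols, which include Ndufa4, now counted with complex IV, 10 of 38 were called lower, with a median of -0.12. Of the assembly factors 2 of 8 were, with a median of -0.07. In RNA from whole tissue, fewer cells of a type and less RNA per cell cannot be told apart.

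The count of 12 changed when single libraries were left out, as did the calls over all genes. Members called lower numbered 27 without on replicate 1, where 8.02% of all tested genes were called lower. Leaving out on replicate 2, 3 or 4 gave 3, 2 and 2 calls, and leaving out off replicate 1, 2 or 3 gave 8, 0 and 2. In the same order, these fits called 136, 49, 64, 246, 37 and 51 of all 17896 tested genes lower, against 320 with all libraries. A correction that removes from each library its smooth trend with GC content and transcript length left 1 member called, Ndufa2, where 0.426% of the 17831 genes with both properties were called lower. The corrected median of the members was -0.03, against 0.00 over all tested genes, and 32 of the 46 were negative.

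**Figure D1:**
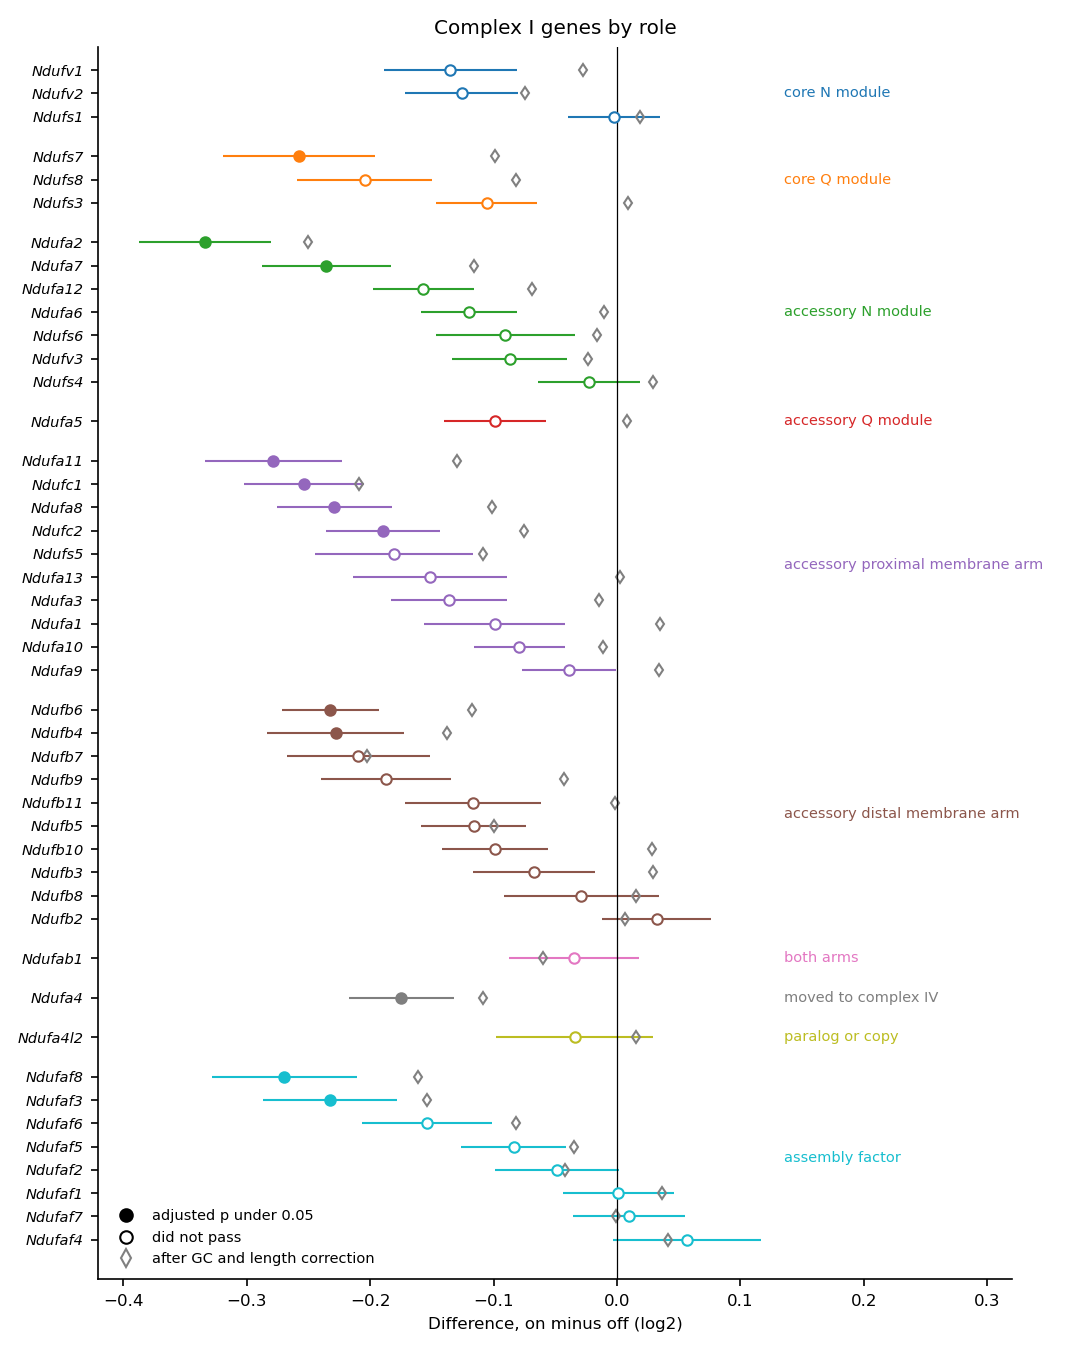
Differences, on minus off (log2 of the rlog scale, x axis), of tested complex I genes grouped by role. Circles with bars are the difference ± 1 moderated SE from 4 on and 3 off libraries, filled where the adjusted p was under 0.05, and grey diamonds are the values after the GC and length correction. The 12 filled circles lie between -0.33 and -0.17, and the diamonds lie nearer to 0 in most rows.

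Nuclear respiratory genes share a set of promoter letters bound by the regulators NRF1, ETS factors (GABP), YY1 and estrogen-related receptors. RefSeq promoters on GRCm38.p6, 250 bases before to 50 after the start, were at hand for 40 of the 46 tested members. Exact letters were searched on both strands and are a description, not a site. The NRF1 letters GCATGCGC occurred in 5 of the 40 members (12.5%) and in 3.0% of the 27025 genes with a promoter. The YY1 letters AAGATGGC occurred in 8 of the 40 members and in 3.2% of genes, and all 8 matches lay on the gene's own strand, 11 to 39 bases after the start. The ETS letters CCGGAAG were found in 15.0% of members against 9.9% of genes, ERR letters AAGGTCA in 7.5% against 5.4%, SP1 letters GGGCGG in 52.5% against 38.2%, and CRE letters TGACGTCA in 7.5% against 2.0%. CCAAT was found in 14 of the 40 members against 41.1% of genes, and TATAAA in 4 members against 15.7% of genes. Median GC content was 59.3% in the promoters of members and 52.7% in all promoters, and its part in these shares was not tested. The 27025 genes were not limited to those tested here, whereas the members were. In Ndufs3 an ETS match overlaps an SP1 match. The median difference was -0.12 both for the 5 members with the NRF1 letters, of which 2 were called lower, and for those without, of which 9 were. Medians with and without the letters were -0.21 and -0.12 for ETS, -0.18 and -0.12 for ERR, and -0.22 and -0.11 for TATAAA, each on 6 members or fewer with a match. They were -0.11 and -0.12 for YY1, -0.11 and -0.14 for SP1, -0.08 and -0.12 for CRE, and -0.12 and -0.12 for CCAAT, and none of these contrasts was tested.

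The 3 stretches that follow lie upstream of members with the same NRF1 letters and with unlike differences between on and off, and the capitals mark those letters, on either strand, read 5′ to 3′ along the gene. The first, of Ndufa11, is chr17:56717686-56717761 on the plus strand, 76 to 1 bases before the start. The stretch of Ndufa6 is chr15:82354323-82354442 on the minus strand, 151 to 32 bases before the start. That of Ndufaf4 is chr4:24897915-24898034 on the plus strand, 168 to 49 bases before the start. In Ndufa11 and Ndufaf4 a match on each strand overlaps the other.
Ndufa11: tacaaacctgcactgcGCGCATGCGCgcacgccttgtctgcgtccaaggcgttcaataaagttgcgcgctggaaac
Ndufa6: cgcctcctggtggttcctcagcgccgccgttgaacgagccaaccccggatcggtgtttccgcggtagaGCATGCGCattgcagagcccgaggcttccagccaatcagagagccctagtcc
Ndufaf4: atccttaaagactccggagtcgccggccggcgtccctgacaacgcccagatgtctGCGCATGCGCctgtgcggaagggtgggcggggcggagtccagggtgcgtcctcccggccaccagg
Their differences were -0.28 for Ndufa11, which passed the test, and -0.12 for Ndufa6 and 0.06 for Ndufaf4, which did not.

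In the core of the matrix arm 1 of the 7 nuclear subunits was called lower, Ndufs7 (1.79% of all tested genes were). Ndufs7 carries the last iron-sulfur cluster before ubiquinone and lies on chromosome 10, bases 80249121 to 80256794 of GRCm38. Its on libraries, replicates 1 to 4, measured 11.06, 10.79, 10.87 and 10.84, and its off libraries, replicates 1 to 3, 11.04, 11.23 and 11.16. On replicate 1 lay above off replicate 1, and the other on libraries lay below all off libraries. The difference was -0.26 ± 0.06 (SE, limma adjusted p = 0.0451), so the level in on was 83.7% of that in off on the linear rlog scale. Its adjusted p ranged from 0.000633 to 0.226 with 1 library left out, and after the GC and length correction the difference was -0.10 (adjusted p = 0.162). Ndufs8, another iron-sulfur protein of the Q module, was close to the threshold at -0.20 ± 0.05 (SE, limma adjusted p = 0.0609). Ndufs3, a core subunit without a cluster, had a difference of -0.11 ± 0.04 (SE, limma adjusted p = 0.169).

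The N module core did not pass. Ndufv1, which binds NADH and the flavin that takes its electrons, measured 12.32, 12.04, 12.19 and 12.16 in on and 12.27, 12.35 and 12.32 in off, so the groups overlapped through on replicate 1. Its difference was -0.14 ± 0.05 (SE, limma adjusted p = 0.178), and that of its partner Ndufv2 was -0.13 ± 0.05 (SE, limma adjusted p = 0.144). Ndufs1, the largest core subunit, which carries several iron-sulfur clusters, measured 12.82, 12.78, 12.77 and 12.82 in on and 12.82, 12.84 and 12.74 in off. The groups lay on top of each other, with a difference of -0.00 ± 0.04 (SE, limma adjusted p = 0.978), whose sign depended on the scaling between libraries (0.00 when centred on medians and 0.01 after quantile normalization).

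Ndufa2, an accessory subunit of the N module with a thioredoxin-like fold, had the largest difference among the members. It measured 10.29, 10.07, 10.15 and 10.08 in on and 10.44, 10.54 and 10.47 in off. All on libraries lay below all off libraries, and on replicate 1 was the nearest to them. The difference was -0.33 ± 0.05 (SE, limma adjusted p = 0.00828), a level of 79.3% of that in off on the linear rlog scale. It was -0.25 ± 0.04 (SE, limma adjusted p = 0.0197) after the GC and length correction, and it passed in 6 of the 7 fits with 1 library left out, the exception being off replicate 2 (adjusted p = 0.0722).

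Ndufa7, also of the N module, was the other called accessory subunit of the matrix arm. Its values were 10.63, 10.42, 10.45 and 10.43 in on and 10.66, 10.73 and 10.76 in off. On replicate 1 stood just below the lowest off library and well above the other on libraries. The difference was -0.24 ± 0.05 (SE, limma adjusted p = 0.0338), with adjusted p from 0.000508 to 0.163 when 1 library was left out, and -0.12 (adjusted p = 0.162) after the correction. The N module members Ndufa12, Ndufa6, Ndufs6, Ndufv3 and Ndufs4 did not pass. Ndufa12, bound in late assembly, had -0.16 ± 0.04 (SE, limma adjusted p = 0.0573). Ndufa6, an LYR protein that holds the acyl carrier protein, had -0.12 ± 0.04 and no overlap between groups. Ndufs6, a zinc protein, had -0.09 ± 0.06, Ndufv3 -0.09 ± 0.05 and Ndufs4, whose loss causes a Leigh-like disease in mice, -0.02 ± 0.04. Ndufa5 of the Q module had -0.10 ± 0.04 (SE, limma adjusted p = 0.191).

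**Figure D2:**
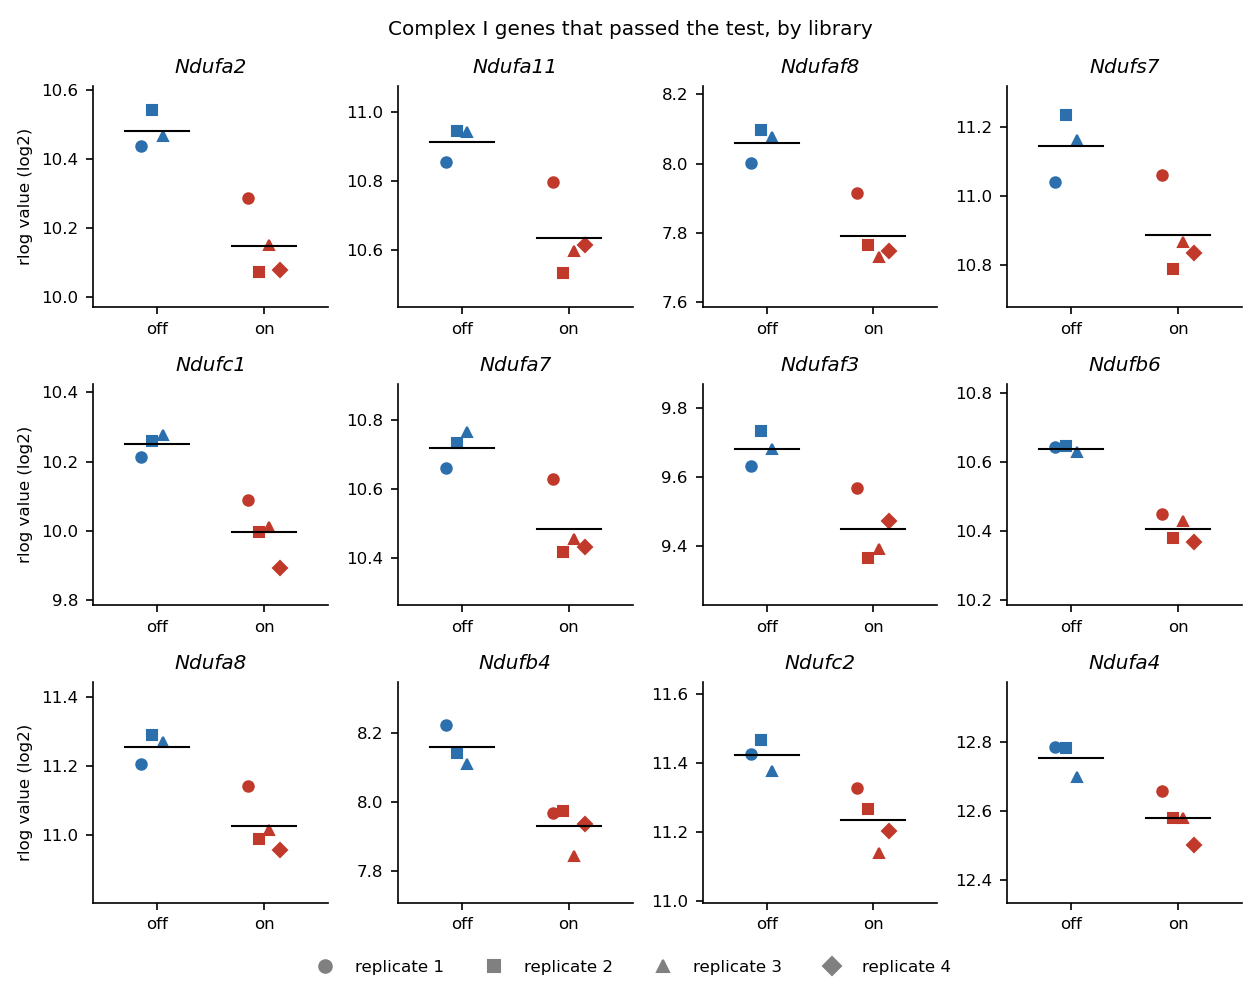
The rlog values (log2, y axis, separate range in each panel) of the 12 complex I genes with an adjusted p under 0.05 in the 3 off libraries (blue) and the 4 on libraries (red). Each symbol is 1 library, its shape the replicate number, and lines are group means. The on circle (replicate 1) is the highest on value in every panel but that of Ndufb4, and only in the panel of Ndufs7 does it lie among the off values.

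The part of the membrane arm next to the matrix arm held 4 of the 12 called genes among the 10 accessory subunits grouped with it here. Of all tested genes 1.79% were called lower. The median difference of the 10 was -0.17. All 10 differences were negative. Ndufa11, which touches complex III in the respiratory supercomplex, (chromosome 17, bases 56717767 to 56722141) measured 10.80, 10.54, 10.60 and 10.61 in on and 10.86, 10.94 and 10.94 in off, with no overlap. Its difference was -0.28 ± 0.06 (SE, limma adjusted p = 0.0225), or 82.5% of the off level. Ndufc1, a small membrane subunit, measured 10.09, 9.995, 10.01 and 9.89 in on and 10.21, 10.26 and 10.28 in off. Here too all on values lay below all off values, and the difference was -0.25 ± 0.05 (SE, limma adjusted p = 0.0184). Its partner Ndufc2, needed to join parts of the membrane arm, measured 11.33, 11.27, 11.14 and 11.20 against 11.43, 11.47 and 11.38. The groups did not overlap, with on replicate 1 nearest to off replicate 3, and the difference was -0.19 ± 0.05 (SE, limma adjusted p = 0.0477). Ndufa8, a protein of the intermembrane face with paired cysteines, measured 11.14, 10.99, 11.02 and 10.96 against 11.21, 11.29 and 11.27. The groups did not overlap, and the difference was -0.23 ± 0.05 (SE, limma adjusted p = 0.025). With 1 library left out the adjusted p of these genes ranged from 0.000187 to 0.136 for Ndufa11, 0.00084 to 0.115 for Ndufc1, 0.00294 to 0.225 for Ndufc2 and 0.000537 to 0.15 for Ndufa8. After the GC and length correction the 4 differences were -0.13, -0.21, -0.08 and -0.10, and none passed.

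The other 6 subunits grouped as proximal, among them Ndufa9, which can also be counted with the Q module, did not pass. Ndufs5, with paired cysteines like Ndufa8, had -0.18 ± 0.06, Ndufa13, also known as GRIM-19, -0.15 ± 0.06, and Ndufa3 -0.14 ± 0.05. Ndufa1, a short X-linked membrane protein, had -0.10 ± 0.06, Ndufa10, with a nucleoside kinase fold, -0.08 ± 0.04, and Ndufa9, with a dehydrogenase fold that holds a nucleotide, -0.04 ± 0.04. Limma adjusted p-values of these 6 were 0.133, 0.189, 0.126, 0.347, 0.241 and 0.602. Ndufa9, Ndufa1 and Ndufa13 turned positive after the correction, at 0.03, 0.03 and 0.00.

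In the distal part of the membrane arm 2 of the 10 Ndufb members were called lower (1.79% of all tested genes). Their median difference was -0.12. After the GC and length correction it was -0.02, against -0.04 for the proximal group, and differences between modules were not tested. Ndufb6, a single-pass membrane subunit on chromosome 4 (bases 40270591 to 40279421, minus strand), measured 10.45, 10.38, 10.43 and 10.37 in on and 10.64, 10.65 and 10.63 in off. Its groups were the tightest of the called genes, with an SD of 0.04 (n = 4) in on and 0.01 (n = 3) in off, and did not overlap. The difference of -0.23 ± 0.04 (SE, limma adjusted p = 0.0108) passed in 6 of the 7 fits with 1 library left out, and not without off replicate 2 (adjusted p = 0.0778). It was -0.12 (adjusted p = 0.128) after the correction. Of the exon bases of Ndufb6, 39.0% overlap Smim27 on the other strand, and no source used here gives the strand setting used in counting, so reads of the pair may not have been separated.

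Ndufb4 measured 7.97, 7.97, 7.84 and 7.94 in on and 8.22, 8.14 and 8.11 in off, and was the one called gene in which on replicate 1 was not the highest on library. The groups did not overlap, and the difference was -0.23 ± 0.06 (SE, limma adjusted p = 0.0467, from 0.0106 to 0.17 with 1 library left out). The value is uncertain because near-identical copies, Ndufb4c among them, can share its reads. Ndufb7, with paired cysteines, and Ndufb9, an LYR protein, followed at -0.21 ± 0.06 (SE, limma adjusted p = 0.0683) and -0.19 ± 0.05 (SE, limma adjusted p = 0.0717). Ndufb11, encoded on the X chromosome, had -0.12 ± 0.06, Ndufb5 -0.12 ± 0.04, Ndufb10 -0.10 ± 0.04, Ndufb3 -0.07 ± 0.05 and Ndufb8 -0.03 ± 0.06. Ndufb2 stood at the other end of the range at 0.03 ± 0.04 (SE, limma adjusted p = 0.722). It measured 10.39, 10.46, 10.45 and 10.43 in on and 10.47, 10.41 and 10.32 in off, so that off libraries were both the highest and the lowest.

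Outside these modules, Ndufa4, which was named as a complex I subunit and is now counted with cytochrome c oxidase (complex IV), measured 12.66, 12.58, 12.58 and 12.50 in on and 12.78, 12.78 and 12.70 in off. The groups did not overlap, with on replicate 1 again nearest to off replicate 3. The difference was -0.17 ± 0.04 (SE, limma adjusted p = 0.0463, from 0.00346 to 0.21 with 1 library left out) and -0.11 (adjusted p = 0.129) after the correction. Its paralog Ndufa4l2, known for induction in hypoxia, had -0.03 ± 0.06 (SE, limma adjusted p = 0.802). Ndufab1, the mitochondrial acyl carrier protein, present in both arms and also free in the matrix, had -0.03 ± 0.05 (SE, limma adjusted p = 0.753). It ran against the usual order of the libraries, with on replicate 1 lowest at 10.27 and on replicate 2 highest at 10.48.

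Among the assembly factors Ndufaf8 and Ndufaf3 were called lower. Ndufaf8, a small protein that partners Ndufaf5 (chromosome 11, bases 120098928 to 120100705), measured 7.92, 7.77, 7.73 and 7.75 in on and 8.00, 8.10 and 8.08 in off. All on values were below all off values, and the difference was -0.27 ± 0.06 (SE, limma adjusted p = 0.0322, from 0.00161 to 0.167 with 1 library left out). Ndufaf3, which acts with Ndufaf4 on the Q module, measured 9.57, 9.37, 9.39 and 9.47 against 9.63, 9.73 and 9.68. These groups did not overlap either, and the difference was -0.23 ± 0.05 (SE, limma adjusted p = 0.0393, from 0.00189 to 0.208 with 1 library left out). After the GC and length correction the differences were -0.16 (adjusted p = 0.135) for Ndufaf8 and -0.15 (adjusted p = 0.118) for Ndufaf3.

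The other 6 assembly factors did not pass. Ndufaf6, needed early in Q module assembly, measured 7.65, 7.74, 7.62 and 7.67 in on and 7.80, 7.84 and 7.83 in off, with no overlap and a difference of -0.15 ± 0.05 (SE, limma adjusted p = 0.124). Ndufaf5, which hydroxylates an arginine of Ndufs7, had no overlap either, at -0.08 ± 0.04 (SE, limma adjusted p = 0.283). Ndufaf2, which sits in the place of Ndufa12 during assembly, had -0.05 ± 0.05 (SE, limma adjusted p = 0.622), and 65.6% of its exon bases overlap B230220B15Rik on the other strand. Ndufaf1, of the complex that builds part of the membrane arm, and Ndufaf7, a methyltransferase, had 0.00 ± 0.04 and 0.01 ± 0.05. Ndufaf4 had the highest difference of all members at 0.06 ± 0.06 (SE, limma adjusted p = 0.631). It measured 10.41, 10.67, 10.56 and 10.53 in on and 10.54, 10.55 and 10.37 in off. Ndufaf3 and Ndufaf4, partners in assembly, thus had differences of -0.23 and 0.06, and the contrast between them was not tested.

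The members moved together across libraries within as well as between groups. Off replicate 2 was the highest library in 32 of the 46 tested members, and on replicate 2 was the lowest in 17 and on replicate 4 in 14. On replicate 1 lay above the other on libraries in 36 members and at or above the lowest off library in 26. The mean deviation of the 46 members from their own means was 0.02 in on replicate 1, against -0.09, -0.07 and -0.08 in on replicates 2, 3 and 4, and it was 0.06, 0.11 and 0.05 in off replicates 1, 2 and 3. Without on replicate 1 the on libraries lay below all off libraries in 33 members, where 16.7% of all tested genes did so. A list of 8 RNAs that stay largely in the nucleus (Malat1, Meg3, Neat1, Miat, Snhg11, Snhg14, Rian and Mirg) had roughly the inverse order. Its mean deviation was -0.13 in on replicate 1, between 0.16 and 0.22 in on replicates 2 to 4, and between -0.28 and -0.06 in off, lowest in off replicate 2. Of these 8 RNAs 2 were called higher in on, Malat1 at 0.61 ± 0.11 (SE, limma adjusted p = 0.0159) and Snhg14 at 0.29 ± 0.05 (SE, limma adjusted p = 0.0115). Both passed in 4 of the 7 fits with 1 library left out, with adjusted p up to 0.094 and 0.0911 without off replicate 2, and not without on replicate 3 or off replicate 3 either. Without on replicate 1, 7 of the 8 were called higher, where 8.28% of all tested genes were. The median transcript length of the 8 was 7536 bases. After the GC and length correction their median difference went from 0.24 to 0.13. Malat1 then passed (limma adjusted p = 0.0396) and Snhg14 did not (0.075). The part of these RNAs in the differences of complex I genes was not tested.

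**Figure D3:**
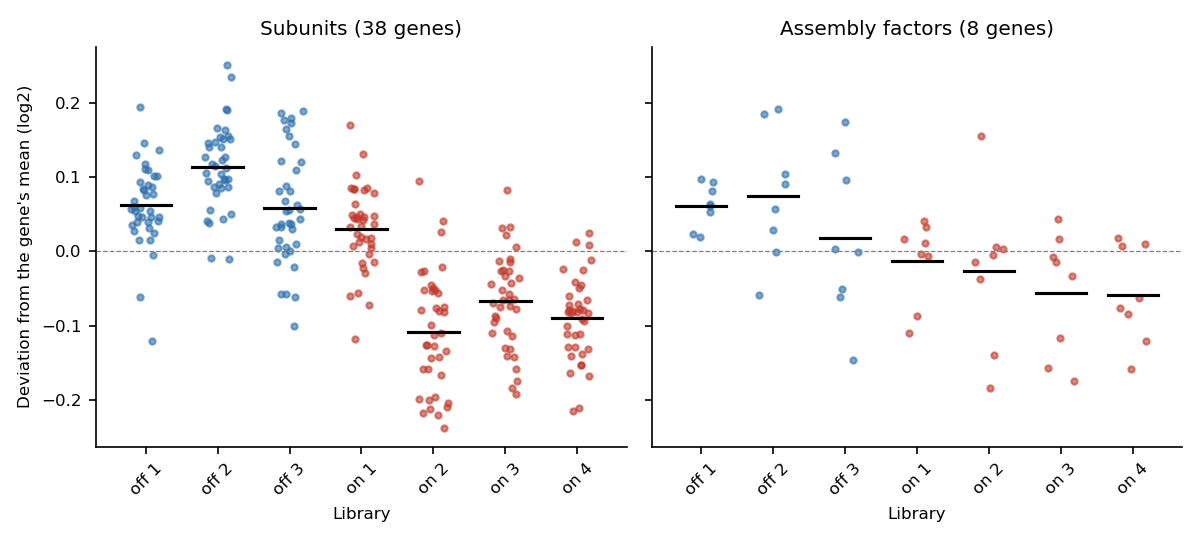
Deviation of each tested complex I gene from its mean over the 7 libraries (log2, y axis) by library, for 38 subunits (left) and 8 assembly factors (right). Points are genes and lines are library means. Off replicate 2 is the highest library in both panels, and on replicate 1 lies between the off libraries and the other on libraries.

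Brain markers were present, and none passed the test over all libraries. All 6 neuronal, 5 astrocyte, 5 oligodendrocyte, 5 microglial and 4 endothelial markers were tested, with 0 called by limma, and their median differences were -0.07, -0.01, -0.07, -0.08 and 0.12. An unadjusted limma p under 0.05 was found for 2 neuronal, 1 microglial and 1 endothelial marker, and for 20.7% of all tested genes. Without on replicate 1, where 27 complex I genes were called lower, 6 of the 25 markers also passed, in either direction. Of all tested genes 8.02% were then called lower and 8.28% higher. The endothelial markers Flt1 (limma adjusted p = 0.00233), Slco1a4 (0.0148) and Pecam1 (0.038) were higher, and Tmem119 of microglia (0.0239) and Mog and Cnp of oligodendrocytes (0.0299 and 0.049) were lower. The part of these cell types in the differences of complex I genes was not tested. The endothelial list had the widest spread of these 5, with a mean deviation of -0.25 in on replicate 1, values between 0.11 and 0.14 in on replicates 2 to 4, and values between -0.22 and 0.06 in off. Of the muscle genes Ckm was listed at 0.71 to 0.74 and Myh2 at 4.37 to 4.64, while Acta1 lay at 6.92 to 7.03 in on and 7.05 to 7.25 in off, without overlap (limma adjusted p = 0.114). Of the liver genes Alb was listed at -0.18 to -0.15, Apoc3 at 2.75 to 2.80 and Apoa2 at 4.30 to 4.42. The 4 globin genes of blood were all tested, none was called, and their median difference was -0.11, with Hbb-bs the most variable at 6.66 to 7.58.

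The difference of a member went with its length and base composition. Across the 46 members Spearman's rho of the difference was 0.55 with the length of the longest transcript and -0.50 with GC content, against 0.39 and -0.38 across all 17831 tested genes with both values. These are correlations across genes that share the same 7 libraries. The members' median transcript length was 1170.5 bases and that of all tested genes 3158. Ndufa2, with the lowest difference, has 572 exon bases, whereas Ndufaf4, with the highest, has 3902, and Ndufs1 and Ndufb2, near 0, have 8086 and 5628. An exception was Ndufb7, with 4522 exon bases, at -0.21 before and -0.20 after the correction. Ndufa1, at 419 exon bases the shortest tested member, had -0.10. After the correction rho across the members was 0.22 with length and -0.25 with GC content, and on and off libraries failed to overlap in 13 members lower (7.95% of all tested genes with both properties) and 1 higher (5.85%).

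**Figure D4:**
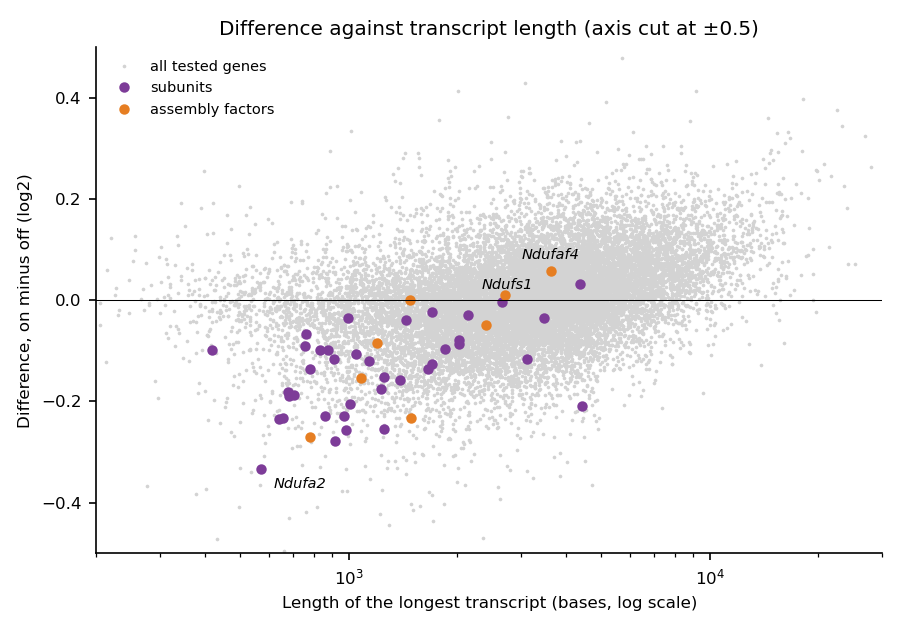
Difference, on minus off (log2, y axis, limited to ±0.5), against the length of the longest transcript (bases, log scale, x axis) for all tested genes (grey), complex I subunits (purple) and assembly factors (orange). Members with short transcripts lie lower, Ndufa2 lowest at -0.33, and Ndufaf4 and Ndufs1 lie to the right near 0.

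Levels can be set side by side only per length, as the mean rlog value minus log2 of the exon length in kilobases. On this scale the called subunit Ndufa4 was highest at 12.19, followed by Ndufb9 at 11.87, Ndufa1 at 11.76 and Ndufc2 at 11.72. The lowest tested members were Ndufa4l2 at 5.60, Ndufb4 at 7.09, Ndufaf6 at 7.43 and Ndufab1 at 7.61. All 8 assembly factors, from Ndufaf6 to Ndufaf5 at 9.18, lay below 32 of the 38 tested subunits. The exon length counts every annotated transcript, retained introns included, which lowers the level of genes such as Ndufab1 with 6883 exon bases. The size of the difference showed little relation to the mean value (rho 0.09 across the 46 members).

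Many members share a start region with a gene on the other strand. A gene that starts on the opposite strand within 1000 bases was annotated for 16 of the 46 tested members (34.8%), and for 9.6% of 15264 tested protein-coding genes. Ndufa7 starts 10 bases from Rps28, a ribosomal protein gene, and both were called lower, Rps28 at -0.32 ± 0.05 (SE, limma adjusted p = 0.00499, passing with any 1 library left out). Ndufa2 starts 99 bases from Ik, a splicing factor gene with 0.07 ± 0.04 (SE, limma adjusted p = 0.321), against -0.33 for Ndufa2. Ndufa8 and Morn5 are 52 bases apart, with -0.23 and -0.01, Ndufaf8 and Tepsin 197 bases apart, with -0.27 and -0.08, and Ndufa4 and Phf14 312 bases apart, with -0.17 and 0.08. Conversely Ndufs1, 8 bases from the translation factor gene Eef1b2, had -0.00 against -0.11. Overlaps of exons on the other strand also touched Ndufa13 (30.0% with Tssk6), Ndufb11 (12.9% with Rbm10), Ndufb5 (12.3% with Mrpl47), Ndufa2 (11.5% with Tmco6) and Ndufa11 (6.4% with Vmac), and 19.5% of the exon bases of Ndufb9 are shared with Gm49356 on the same strand.

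The remaining genes of the pathway were read from lists. Of 11 further complex I assembly factors, such as Acad9, Ecsit and Timmdc1, which act with Ndufaf1, none was called. Of these 11, 1 had an unadjusted p under 0.05 (20.7% of all tested genes) and 10 had negative differences, with a median of -0.04. The lowest was Dmac1 at -0.13 ± 0.05 (SE, limma adjusted p = 0.183). Of the 7 complex I subunits of the mitochondrial genome 6 were tested, with a median of 0.08. Among them mt-Nd6, from the light strand, was called higher at 0.71 ± 0.06 (SE, limma adjusted p = 7.71e-05) and mt-Nd3 lower at -0.11 ± 0.03 (SE, limma adjusted p = 0.0493). The call of mt-Nd6 held with any 1 library left out, and that of mt-Nd3 held in 1 such fit, without on replicate 1 (adjusted p from 0.0233 to 0.169). After the GC and length correction mt-Nd6 still passed (limma adjusted p = 1.43e-05) and mt-Nd3 did not (0.0896). The mean value of mt-Nd3, 3.54, was close to the level of 3 needed for testing. The strand setting used in counting is unknown, so reads from the other strand may be included in mt-Nd6. Per length mt-Nd3 stood at 5.06, mt-Nd6 at 12.40 and mt-Nd1 at 17.99. The value of mt-Nd4l, -2.09 in every library, was below the level for testing. Nuclear and mitochondrial subunits of complex I thus had medians of opposite sign, and the difference between the lists was not tested.

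Regulators of respiratory genes showed 1 call among 10, lower in on, where 1.79% of all tested genes were called lower and 0.816% higher. Esrra, the receptor ERRα that activates respiratory genes, measured 10.61, 10.51, 10.52 and 10.46 in on and 10.70, 10.83 and 10.74 in off. The groups did not overlap, and the difference was -0.23 ± 0.05 (SE, limma adjusted p = 0.025), or -0.19 ± 0.04 (SE, limma adjusted p = 0.0506) after the GC and length correction. With 1 library left out its adjusted p was 0.00125 without on replicate 1, 0.0302 without off replicate 1 and from 0.0566 to 0.16 in the other fits. Its coactivator Ppargc1a had 0.06 ± 0.04, Nrf1 0.07 ± 0.05, Gabpa 0.15 ± 0.06 and Yy1 0.12 ± 0.06, and none of these passed with all libraries. Without on replicate 1, Gabpa (limma adjusted p = 0.00943), Pprc1 (0.0202) and Yy1 (0.0229) were called higher, where 8.28% of all tested genes were. The difference was positive in 8 of the 10 regulators, and over all 17896 tested genes it was negative in 8673. Of 7 genes that bring electrons to ubiquinone by other routes, including succinate dehydrogenase and Etfdh, none was called. Among these 7, 2 had an unadjusted p under 0.05 (20.7% of all tested genes) and 6 were negative. The lowest was Sdhc at -0.15 ± 0.04 (SE, limma adjusted p = 0.0552).

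The other respiratory complexes had medians of like size. The median difference was -0.09 for 4 tested subunits of complex II, -0.18 for 9 of complex III, -0.11 for 17 of complex IV and -0.10 for 16 of complex V, against -0.12 for the complex I subunits. Called lower were 0, 3, 2 and 3 of them (1.79% of all tested genes), and none was called higher (0.816% of all). Those called were Uqcrc1, Uqcrfs1 and Uqcrq of complex III, Cox5a and Cox6a1 of complex IV, and Atp5e, Atp5g1 and Atp5g3 of the ATP synthase. The lowest difference was that of Atp5e, -0.39 ± 0.06 (SE, limma adjusted p = 0.00511). Atp5e and Atp5g3 passed with any 1 library left out and Cox5a in 6 of the 7 fits, and the other 5 passed in 1 or 2, with adjusted p up to 0.215 (for Atp5g1, when off replicate 2 was omitted). With the correction for GC and length the medians of complexes II to V were -0.03, -0.03, -0.02 and -0.04, against -0.03 for complex I. Of the 8 called genes of complexes III to V, 5 were still called, Uqcrc1 (limma adjusted p = 0.0322), Cox5a (0.01), Atp5e (0.0121), Atp5g1 (0.0368) and Atp5g3 (0.00824). Of the 10 called subunit symbols of complex I, Ndufa4 among them, 1 was still called, Ndufa2. In the corrected fit 0.426% of the 17831 genes with both properties were called lower. The complex I symbols include Ndufa4, now counted with complex IV, and its paralog Ndufa4l2, and the complex IV list leaves both out. That list takes in Cox4i2, Cox6a2, Cox6b2, Cox7a1, Cox7b2 and Cox8b, with mean values from 3.78 to 6.51. Ndufa4l2 and Atp5l of complex V were also low, at 5.73 and 5.60, and rlog values shrink the differences of low genes more. Differences between the complexes were not tested.

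**Figure D5:**
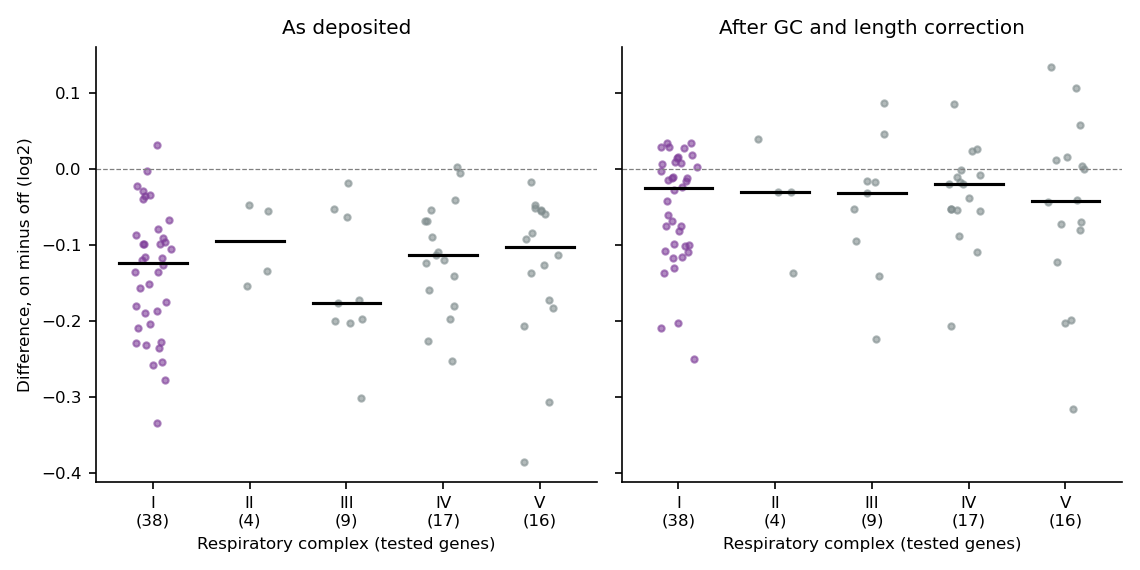
Differences, on minus off (log2, y axis), of tested subunit genes of respiratory complexes I to V (x axis, number of genes in brackets), as deposited (left) and after the GC and length correction (right). Points are genes and lines are medians, which lie between -0.18 and -0.09 on the left and between -0.04 and -0.02 on the right. Ndufa4, now counted with complex IV, is drawn with complex I.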

How the data were processed

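RNA was extracted with a column kit and made into libraries with a stranded poly(A) kit, per the labels' protocols. The authors deposited regularized log2 values, 1 column per library, for 48526 genes, of which 13834 are listed at 0 throughout. Tools named in the submitters' processing notes, with no role for each, are DESeq2 1.16.1, Subread 1.5.3, the aligners STAR 2.5.2 and BWA 0.7.14-r1136, and cutadapt 1.9.1, with the build GRCm38. The sources used here give no annotation release, strand setting or filter. Counts were not used, so depth per library is unknown.

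Symbols were found for 99.0% of the identifiers, and positions, exons and GC content came from GENCODE M21. No library pair was identical. Genes with a mean value of at least 3 (17896) went into limma 3.58.1 under R 4.3.3, on against off over 4 and 3 libraries, with a variance trend on intensity. Tests were two-sided, with p-values adjusted by Benjamini-Hochberg over all of these genes and called at 0.05. Errors are moderated SE for differences and SD for group means. The GC and length correction used mgcv 1.9.3, with smooths in 3 classes of mean value, and 99.6% of tested genes had both properties. The fit was tested on simulated data with 200 changed genes and noise drawn independently for each gene, unlike the shared movement seen here. It recovered 8% of changes of 0.1, 58% of changes of 0.2 and 100% of those of 0.4 and 0.8. Of 140 calls 7 were false. A difference near 0.1 that did not pass is therefore not shown to be absent.

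Members, lists, motifs and alternatives were chosen with earlier results of these data known, and the lists for complexes II to V follow symbol patterns. Every tested member enters the counts and medians, and 1 of them is not reported here by name. Values in each library are given for called members and for others at the ends of the range. Alternatives were other filters, scalings, variance models, weights per library, a term for the replicate number, a looser threshold of 0.1, the correction with and without on replicate 1, and each library left out. Promoters are from RefSeq on GRCm38.p6. No proteins were used here.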

Additional observations from a re-analysis of the deposited data

Results flagged for a closer look

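In 3 members 1 on library stood far from the other 3, and in each it was on replicate 1. It measured 10.63 for Ndufa7, where the other on libraries lay between 10.42 and 10.45, and 11.66 for Ndufb10, where they lay between 11.53 and 11.56. For Ndufv3 it measured 10.83, where the others lay between 10.67 and 10.69. The gap to the nearest other on library took most of the range of the 4. Such gaps were looked for in 48 groups of values, in which chance gives about 2.4.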

How the results depend on the processing

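The count of 12 members called lower became 0 without the filter on low values, 7 without the intensity trend, 23 with array weights and 1 with the correction for GC and length. It ranged from 0 to 27 over the fits with 1 library left out. The causes were not tested. It was 0 with the replicate number as a block and 9 to 16 under the remaining alternatives, and the count called higher was 0 under all of them. Over all genes, calls lower and higher numbered 7 and 1 without the filter, 180 and 57 without the trend, 1134 and 1081 with array weights, 76 and 29 with the correction for GC and length, 811 and 977 with that correction and on replicate 1 left out, and 727 and 455 at a threshold of 0.1. With 1 library left out they numbered from 37 and 6 (off replicate 2) to 1436 and 1481 (on replicate 1). They were 136 and 39 without on replicate 2, 49 and 8 without on replicate 3, and 64 and 21 without on replicate 4. Without off replicate 1 they were 246 and 65, and without off replicate 3 they were 51 and 23.

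With the replicate number as a block, 0 members were called, and 24 genes were lower and 6 higher over all genes. No off library has the number of on replicate 4, so this fit in effect leaves that library out. The difference of Ndufa2, for example, was -0.3112 with the block and also without on replicate 4. Deviations of on and off libraries with the same number had correlations of -0.23, -0.10 and 0.02. Those with different numbers had correlations from -0.195 to 0.297. So few values cannot show whether the numbers pair the samples. Depth per library is unknown, and its bearing on low members such as Ndufa4l2 was not tested.

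The subunit median moved from -0.123 to -0.0253 with the correction and to -0.0417 with on replicate 1 also left out. The assembly factor median moved from -0.0661 to -0.0385 with the correction. Signs reversed only in members that were not called. With the correction, and with the correction and on replicate 1 left out, the values were 0.0346 and 0.0472 for Ndufa1, 0.0156 and 0.0408 for Ndufa4l2, 0.0082 and 0.0181 for Ndufa5, 0.0338 and 0.0391 for Ndufa9, -0.0005 and -0.0018 for Ndufaf7, 0.0283 and 0.0353 for Ndufb10, 0.0292 and 0.0159 for Ndufb3, 0.0190 and 0.0139 for Ndufs1, 0.0092 and 0.0241 for Ndufs3, and 0.0292 and 0.0186 for Ndufs4. The correction alone gave 0.0024 for Ndufa13 and 0.0151 for Ndufb8. Ndufaf1 had -0.0106 with array weights and -0.0012 with the replicate block. Ndufs1 had 0.0038 when centred on medians and 0.0063 after quantile normalization. With 1 library left out the range was -0.1043 to 0.0501 for Ndufa4l2, -0.0294 to 0.0317 for Ndufaf1, -0.0172 to 0.0587 for Ndufaf7, -0.0088 to 0.0684 for Ndufb2, -0.0898 to 0.0200 for Ndufb8 and -0.0321 to 0.0152 for Ndufs1.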
